A study of Arabidopsis thaliana with 16 samples.

Results

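The regions described are the H3K27me3 peaks of the Arabidopsis thaliana pericentromeres, taken from 12 peak lists of germinating seedlings. A peak was counted as pericentromeric when its midpoint lay in a fixed window on each chromosome, at 11.5 to 17.7 Mb of chromosome 1, 1.1 to 7.2 Mb of chromosome 2, 10.3 to 17.3 Mb of chromosome 3, 1.5 to 6.3 Mb of chromosome 4 and 9 to 16 Mb of chromosome 5 (TAIR10 coordinates). The stretch of chromosome 2 from 3.24 to 3.51 Mb was left out, and 99.1% of its bases are also found in the organellar genomes. Of 80252 peaks on chromosomes 1 to 5 over the 12 lists, 12634 (15.7%) were pericentromeric, 67550 lay in the arms and 68 in the stretch left out. Each library had between 950 and 1192 pericentromeric peaks.

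The study profiled H3K27me3 by ChIP-seq in Atsdr4l mutants and wild type to follow the change from seed to seedling. AtSDR4L is an Arabidopsis relative of the rice dormancy regulator SDR4 that acts as a co-repressor together with the B3-domain protein VAL2. At 3 days after imbibition (DAI) and at 1 DAI, whole seedlings of Atsdr4l-4, Atsdr4l-5 and wild-type Col-0 were each sampled with 2 replicates, all on LS medium with 1% sucrose. Each allele lacks a segment of AtSDR4L and was made in Col-0, and Atsdr4l-5 was a bulk of lines that had lost the zCas9 transgene after a backcross. The labels do not say whether the replicates were separate cultures, so the p-values below measure the spread between these samples, which may be technical. Whole seedlings mix many cell types, so that a mark on fewer cells and a weaker mark in all cells cannot be told apart.

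H3K27me3 is the repressive histone mark laid down by Polycomb repressive complex 2, and in plants it covers single developmental genes and gene clusters rather than transposons. Pericentromeres are the repeat-rich flanks of the centromeres, where the silent state rests mainly on DNA methylation and H3K9me2. Genes do occur there, in islands between repeats, and Polycomb marking can be seen on some of them.

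The RefSeq annotation (TAIR10.1, whose nuclear chromosomes were taken as the same as TAIR10) matched the label of the windows. They held 107 protein-coding genes and 122 annotated pseudogenes per Mb of ungapped sequence, against 273 and 12.1 per Mb in the arms. The windows span 30.6 Mb without gaps, of which 94.6% lies in 100-base stretches that occur once in the nuclear and organellar genomes, against 99.0% of 88.0 Mb of arms. The pericentromeric loci themselves were nearly all unique sequence (99.8%). The authors kept reads with a mapping quality over 10, and the part of this filter in where peaks were called was not tested.

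Stretches of 300 bases from 6 loci that the results below turn on show what this sequence looks like. They were taken from a locus marked in every library, from a segment marked at 3 DAI and not at 1 DAI, from a segment marked at 1 DAI and not at 3 DAI, from a segment marked at 3 DAI in Atsdr4l and not in Col-0, and from 2 of the loci with the highest fold enrichment. All are on the + strand of TAIR10.1, 5′ to 3′, and capitals mark matches to the motifs described after them.

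WOX4-AGL97 locus, chr1:17238617-17238916: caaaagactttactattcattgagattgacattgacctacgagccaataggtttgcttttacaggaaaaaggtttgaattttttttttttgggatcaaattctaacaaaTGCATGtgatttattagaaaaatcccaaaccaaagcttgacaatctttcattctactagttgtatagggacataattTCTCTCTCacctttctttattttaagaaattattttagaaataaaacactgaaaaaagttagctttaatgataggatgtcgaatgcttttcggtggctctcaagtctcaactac

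GASA3-GASA2 interval, chr4:6074008-6074307: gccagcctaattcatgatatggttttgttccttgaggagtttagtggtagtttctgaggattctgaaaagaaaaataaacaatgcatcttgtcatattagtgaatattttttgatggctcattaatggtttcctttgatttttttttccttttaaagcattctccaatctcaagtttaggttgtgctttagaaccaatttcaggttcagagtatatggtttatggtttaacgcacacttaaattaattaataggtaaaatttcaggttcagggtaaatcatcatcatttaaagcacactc

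segment near AT1G37140, chr1:14168539-14168838: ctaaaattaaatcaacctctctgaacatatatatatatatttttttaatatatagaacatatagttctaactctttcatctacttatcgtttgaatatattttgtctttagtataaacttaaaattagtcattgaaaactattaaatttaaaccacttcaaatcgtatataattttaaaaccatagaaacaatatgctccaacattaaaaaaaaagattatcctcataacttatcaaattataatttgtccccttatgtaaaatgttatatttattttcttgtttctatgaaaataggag

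WNK9 flank, chr5:10092722-10093021: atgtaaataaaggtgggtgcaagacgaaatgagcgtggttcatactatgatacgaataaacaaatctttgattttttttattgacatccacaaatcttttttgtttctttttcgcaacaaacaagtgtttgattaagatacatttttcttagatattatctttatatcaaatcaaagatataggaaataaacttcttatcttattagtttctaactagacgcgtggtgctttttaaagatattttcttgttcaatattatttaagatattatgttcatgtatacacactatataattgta

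SAP gene body, chr5:13938626-13938925: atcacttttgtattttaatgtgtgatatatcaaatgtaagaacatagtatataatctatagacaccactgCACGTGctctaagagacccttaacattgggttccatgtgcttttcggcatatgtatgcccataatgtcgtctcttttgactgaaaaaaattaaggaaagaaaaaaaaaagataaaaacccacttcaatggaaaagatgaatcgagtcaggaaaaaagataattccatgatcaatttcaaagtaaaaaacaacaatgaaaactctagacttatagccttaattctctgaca

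gene-less locus of chromosome 5, chr5:9424352-9424651: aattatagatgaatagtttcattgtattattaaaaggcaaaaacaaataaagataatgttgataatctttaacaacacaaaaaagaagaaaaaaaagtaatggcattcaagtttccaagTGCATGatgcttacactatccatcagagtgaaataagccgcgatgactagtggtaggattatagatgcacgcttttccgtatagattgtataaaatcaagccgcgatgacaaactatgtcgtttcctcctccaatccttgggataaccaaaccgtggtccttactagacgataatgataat

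The WOX4-AGL97, GASA3-GASA2 and near-AT1G37140 stretches are intergenic, as are the WNK9 flank and the gene-less stretch, while the SAP stretch lies in the gene body outside exons. The motifs searched on both strands were the RY element CATGCA, which B3-domain factors such as VAL2 bind, the G-box CACGTG, the telobox AAACCCTA and the GAGA motif GAGAGA. Each of the WOX4-AGL97 and gene-less stretches holds 1 RY match, and SAP holds 1 G-box. WOX4-AGL97 also holds 2 GAGA matches, which overlap each other and no other motif. The other 3 stretches, which are those of the time and genotype segments, hold none of the 4 motifs in these windows. A stretch of the longest segment marked in every library (chr3:11911154-11911453, not shown) holds none of the 4 motifs either. A lack of motifs was therefore not particular to the time and genotype segments.

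Over all 1309 merged pericentromeric loci (peaks of the 12 lists joined where they overlap), 14.6% of the 300-base windows at locus centres held an RY motif, against 11.9% of all 300-base windows of the pericentromere. The same shares were 2.67% and 2.34% for the G-box, 4.58% and 4.70% for the telobox and 22.5% and 20.7% for GAGA. In the arms, RY stood in 16.4% of locus centres and 11.8% of all windows. The pericentromeric loci were AT-rich, with 32.4% GC against 36.0% in the windows as a whole, and their ratio of observed to expected CG dinucleotides was 0.80 against 0.717. These shares describe letters in windows and carry no test.

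Pericentromeric sequence carried fewer peaks per Mb than the arms in every library. Peaks were also slightly weaker there, whereas a larger share of the pericentromeric genes was marked. The number of peaks averaged 34.4 ± 2.23 per Mb in the pericentromere and 63.9 ± 2.18 per Mb in the arms (SD, n = 12), a log2 ratio of -0.90 (exact sign-flip permutation test over libraries, two-sided p = 0.000488, the smallest it can give, adjusted p = 0.00305). The covered share was 12.9 ± 1.11% in the pericentromere and 24.2 ± 2.01% in the arms, a log2 ratio of -0.91 with the same exact p. The p-values were adjusted by Benjamini-Hochberg over the 25 tests of the design.

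The median fold enrichment (over the control, as the peak caller gave it) was lower in the pericentromere than in the arms, with a log2 ratio of -0.09, again in all 12 libraries (exact p = 0.000488, adjusted p = 0.00305). Median width differed by -0.05 on the log2 scale (exact p = 0.00635, adjusted p = 0.0231), which is the weakest of these differences. With only peaks of fold enrichment 2 or more, the width difference turned to 0.08. A gene was called marked when peaks covered at least 50% of its body. Marked protein-coding genes made up 27.1 ± 1.89% in the pericentromere and 23.0 ± 2.30% in the arms (SD, n = 12), a log2 ratio of 0.24 (exact p = 0.000488, adjusted p = 0.00305).

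The peaks were not spread evenly within the windows. When each window was split into 10 equal parts, numbered from its left edge, peaks covered 24.9 ± 1.45% of part 1 and 31.5 ± 1.24% of part 10 at 3 DAI but only 0.815 ± 0.232% of part 5 (SD, n = 6). The same parts had 24.2 ± 2.43%, 28.9 ± 2.20% and 0.879 ± 0.300% at 1 DAI. Protein-coding genes ran in parallel, with 594 in part 1, 697 in part 10 and 82 in part 5. The centres of the windows, where the centromeric repeats lie, held few called peaks at both times. The authors removed reads with mapping quality of 10 or less, and unique sequence was not counted by part. Few peaks there therefore cannot be read as a lack of the mark.

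**Figure D1:**
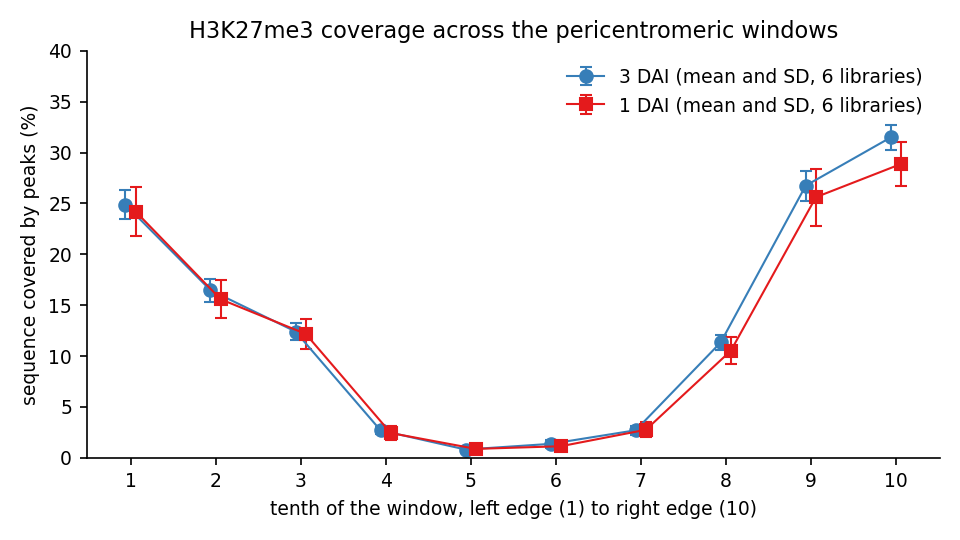
Share of sequence covered by H3K27me3 peaks (y axis, %) in 10 equal parts of the 5 pericentromeric windows (x axis, left edge to right edge), as the mean and SD of 6 libraries at 3 DAI and 6 at 1 DAI. Coverage was 0.815% in part 5 at 3 DAI, against 24.9% in part 1 and 31.5% in part 10, and the 1 DAI line had the same shape.

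The windows of single chromosomes differed too. At 3 DAI the covered share was 15.9 ± 0.938% on chromosome 3, 15.4 ± 0.849% on chromosome 5, 14.7 ± 0.755% on chromosome 1 and 10.6 ± 0.726% on chromosome 2 (SD, n = 6). Chromosome 4 had the least, 7.74 ± 0.505% at 3 DAI and 6.87 ± 0.980% at 1 DAI. The first 3 of these chromosomes overlapped within their ranges at 3 DAI, whereas chromosomes 2 and 4 stood below them in every library.

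Between the time points, the pericentromere had fewer peaks at 3 DAI, and those peaks had higher fold enrichment. More genes were marked at 3 DAI, but the rise was smaller than in the arms. In Atsdr4l-4, 1065 and 972 pericentromeric peaks were called at 3 DAI, against 1192 and 1092 at 1 DAI. In Atsdr4l-5 there were 1033 and 1078 at 3 DAI, against 1065 and 1119 at 1 DAI. In Col-0 there were 976 and 950 at 3 DAI, against 1074 and 1018 at 1 DAI. Within each genotype the mean was lower at 3 DAI, although the ranges over all 6 libraries overlapped.

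The mean number was 33.0 ± 1.75 per Mb at 3 DAI and 35.7 ± 1.92 per Mb at 1 DAI (SD, n = 6 each), a log2 difference of -0.11 (exact permutation test within genotype, two-sided p = 0.0185, adjusted p = 0.0421). In the arms the number went the other way, with a log2 difference of 0.08 (exact p = 0.00926). The difference between the 2 regions was itself tested on the ratio within each library, and this ratio was lower at 3 DAI, with a log2 difference of -0.19 (exact p = 0.00926, the smallest this test can give, adjusted p = 0.0231). Every 3 DAI library had a ratio at or under 0.530 and every 1 DAI library one of at least 0.530.

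The direction of this difference depended on which peaks were counted. Among peaks of fold enrichment 2 or more, the pericentromeric number was higher at 3 DAI by 0.34 on the log2 scale (exact p = 0.0278), and among peaks with -log10 q of at least 5 by 0.16 (exact p = 0.0556). The ratio to the arms stayed lower at 3 DAI with fold enrichment 2 or more, but its exact p was no longer under 0.05. Fold itself was higher at 3 DAI in both regions, and its part in this turn of direction was not tested. Without Atsdr4l-4 1 DAI replicate 1 or Atsdr4l-4 3 DAI replicate 2, the difference over all peaks was -0.09 in both cases, each with an exact p = 0.0556. The stretch of organellar sequence on chromosome 2 moved with the same contrast, with 0 peaks in all 3 DAI libraries and 3 to 19 in the 1 DAI libraries. The depth of the libraries is unknown, and its part in the number of peaks was not tested.

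**Figure D2:**
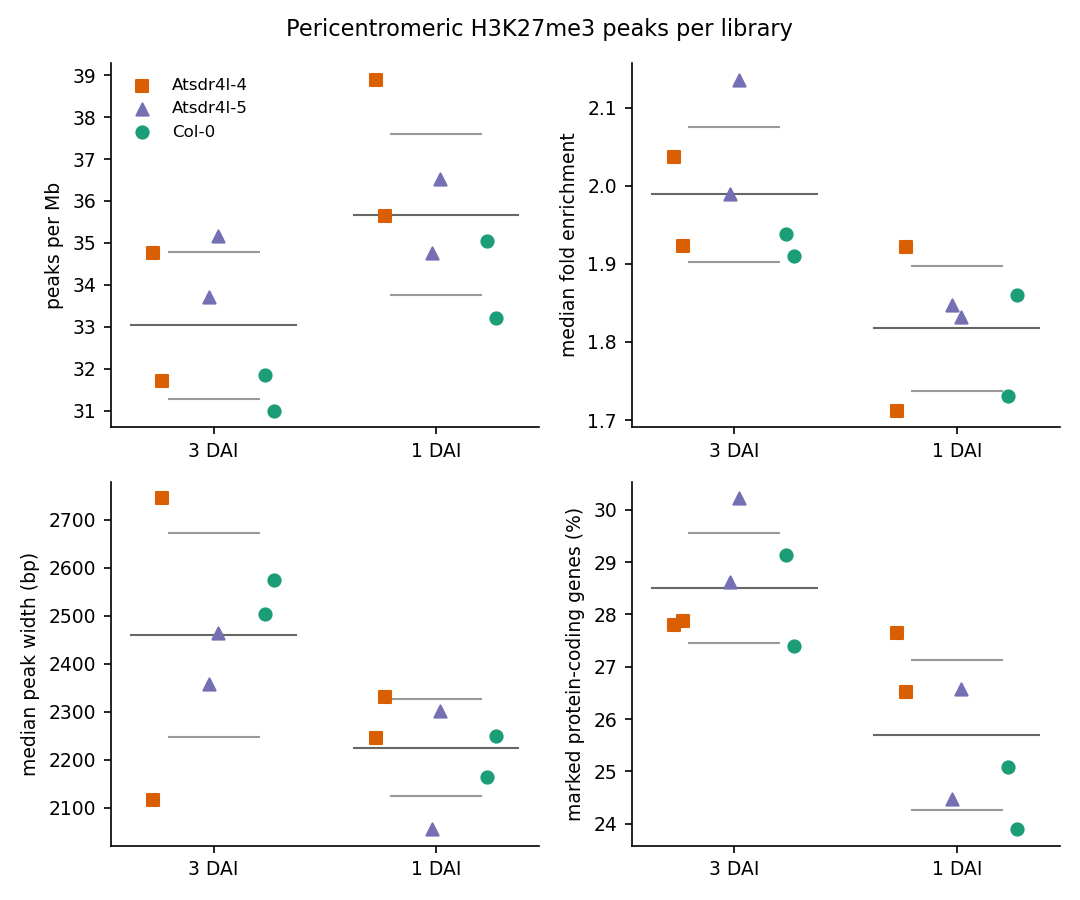
Number per Mb, median fold enrichment, median width (bp) and share of marked protein-coding genes (%) of the pericentromere in each of the 12 libraries, at 3 DAI and 1 DAI (points by genotype, dark line the mean of 6 libraries, light lines 1 SD either side, y axes not from 0). The number averaged 33.0 per Mb at 3 DAI and 35.7 per Mb at 1 DAI, while median fold averaged 1.99 at 3 DAI and 1.82 at 1 DAI.

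Median fold enrichment was 2.04 and 1.92 for Atsdr4l-4, 1.99 and 2.14 for Atsdr4l-5 and 1.94 and 1.91 for Col-0 at 3 DAI. At 1 DAI it was 1.71 and 1.92 for Atsdr4l-4, 1.85 and 1.83 for Atsdr4l-5 and 1.73 and 1.86 for Col-0. One 1 DAI library, Atsdr4l-4 replicate 2, reached the lower end of the 3 DAI libraries, and the other 5 lay under all of them. The mean was 1.99 ± 0.0861 at 3 DAI and 1.82 ± 0.0805 at 1 DAI, a log2 difference of 0.13 (exact permutation p = 0.00926, adjusted p = 0.0231). The arms had 0.15, and the ratio of the 2 regions did not pass the test (-0.02, exact p = 0.213).

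Peaks covered 13.3 ± 0.744% of the pericentromere at 3 DAI and 12.6 ± 1.38% at 1 DAI, which did not pass the test (log2 difference 0.08, exact permutation p = 0.333). In the arms the covered share was higher at 3 DAI by 0.19 (exact p = 0.00926). The log2 difference of the ratio of the regions was -0.11 (exact p = 0.0463), which did not hold after adjustment (adjusted p = 0.0772). Median width was 2460.5 ± 212 bp at 3 DAI and 2225 ± 101 bp at 1 DAI (log2 difference 0.14, exact p = 0.0556), and its change relative to the arms was 0.03 (exact p = 0.130). The direction for width turned round with stricter peaks, to -0.0954 with -log10 q of at least 5 (exact p = 0.287) and -0.13 with fold of at least 2 (exact p = 0.296), and with an equal number of peaks per library the difference was 0.23 (exact p = 0.00926). Covered share was higher at 3 DAI by 0.35 with fold of at least 2 (exact p = 0.00926).

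The share of the 3289 pericentromeric protein-coding genes that were marked was 28.5 ± 1.05% at 3 DAI and 25.7 ± 1.44% at 1 DAI (SD, n = 6 each). Counts were 901 to 994 genes at 3 DAI and 786 to 909 at 1 DAI, ranges that overlapped only through the highest 1 DAI library. The log2 difference was 0.15 (exact permutation p = 0.00926, adjusted p = 0.0231). In the arms it was 0.27, and the ratio of pericentromere to arms was lower at 3 DAI, with a log2 difference of -0.12 (exact p = 0.00926, adjusted p = 0.0231). The share of marked genes thus rose in both regions and rose less in the pericentromere.

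Peaks that held no base of a protein-coding gene were a larger share in the pericentromere. They were 28.4 ± 0.927% of pericentromeric peaks at 3 DAI and 34.8 ± 2.79% at 1 DAI, against 18.1 ± 0.610% and 22 ± 0.599% of arm peaks (SD, n = 6 each). Per library this came to 262 to 316 pericentromeric peaks at 3 DAI and 328 to 461 at 1 DAI. The ranges at the 2 time points did not overlap, and no test was made of this share.

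Between genotypes, no value of the pericentromere alone passed the test after adjustment. Relative to the arms, Atsdr4l libraries had a higher share of marked genes than Col-0 libraries. At 3 DAI the pericentromere over arms ratio of that share was 1.14 and 1.12 in Atsdr4l-4, with 1.14 and 1.20 in Atsdr4l-5, against 1.11 and 1.08 in Col-0. At 1 DAI it was 1.28 and 1.25 in Atsdr4l-4, with 1.24 and 1.26 in Atsdr4l-5, against 1.21 and 1.13 in Col-0. All 4 Atsdr4l libraries stood above both Col-0 libraries at either time.

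The log2 difference of this ratio was 0.08 (exact permutation test within time point, two-sided p = 0.00444, the smallest this test can give, adjusted p = 0.0222). Its parts did not pass on their own, at 0.06 in the pericentromere (exact p = 0.156) and -0.02 in the arms (exact p = 0.333). Either allele alone gave 0.07 (Atsdr4l-4) and 0.09 (Atsdr4l-5), each with an exact p = 0.0556 and only 36 relabellings. Without Col-0 3 DAI replicate 2 the difference was 0.07 (exact p = 0.0533).

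**Figure D3:**
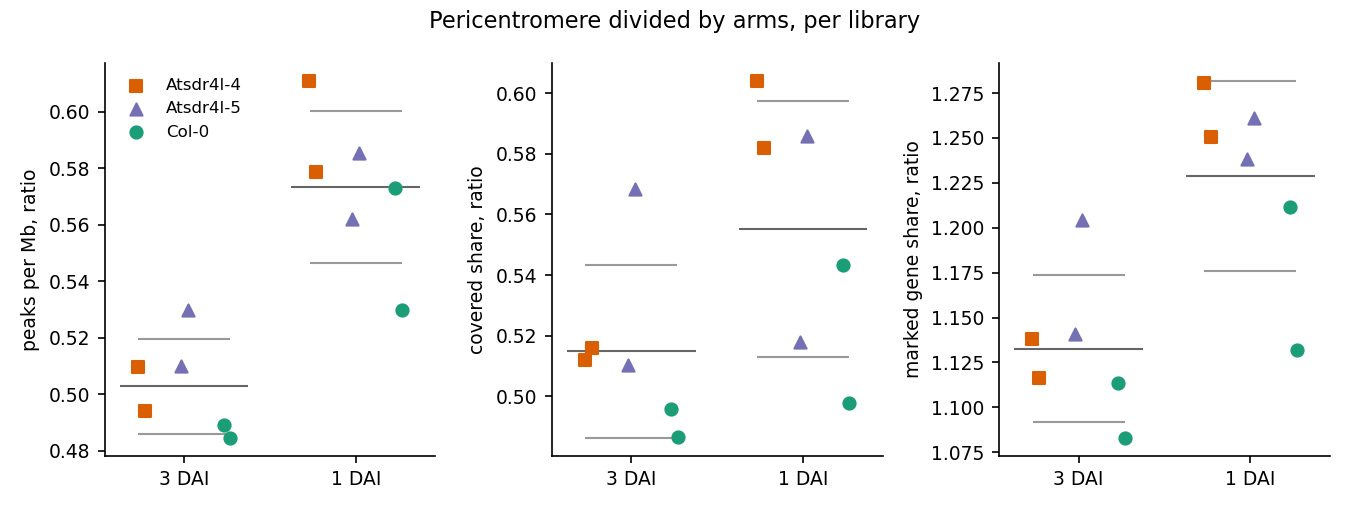
Pericentromere value divided by arm value in each library for peaks per Mb, covered share and share of marked protein-coding genes, at 3 DAI and 1 DAI (points by genotype, dark line the mean of 6 libraries, light lines 1 SD either side, y axes not from 0). The marked-gene ratio was 1.12 to 1.20 in the Atsdr4l libraries of 3 DAI, against 1.08 and 1.11 in Col-0, and 1.24 to 1.28 in those of 1 DAI, against 1.13 and 1.21 in Col-0.

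The number of pericentromeric peaks was higher in Atsdr4l by 0.10 on the log2 scale (exact permutation p = 0.04), which did not hold after adjustment (adjusted p = 0.0714). It averaged 33.8 ± 1.54 per Mb in Atsdr4l (n = 4) and 31.4 ± 0.600 per Mb in Col-0 (n = 2) at 3 DAI. At 1 DAI it averaged 36.4 ± 1.78 per Mb in Atsdr4l and 34.1 ± 1.29 per Mb in Col-0. Relative to the arms, number was higher by 0.08 (exact p = 0.0311, adjusted p = 0.0598) and width by 0.06 (exact p = 0.0267, adjusted p = 0.0556). The log2 difference of the number was 0.10 with Atsdr4l-4 alone (exact p = 0.111) and 0.0971 with Atsdr4l-5 alone (exact p = 0.111), and with 1 allele the 36 relabellings allow no p below 0.0556.

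Covered share in the pericentromere was 13.3 ± 0.948% in Atsdr4l and 13.1 ± 0.101% in Col-0 at 3 DAI. At 1 DAI it was 12.9 ± 1.62% in Atsdr4l and 11.9 ± 0.545% in Col-0. The log2 differences over both times were 0.06 for covered share (exact permutation p = 0.458), -0.03 for width (exact p = 0.667) and 0.05 for fold (exact p = 0.24). The genotype difference was also compared between the time points for each of 10 values, and none passed (exact p from 0.311 to 0.893, adjusted p = 0.893 for each).

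Single loci were then followed across the lists. The union of all peaks gave 7578 merged loci on chromosomes 1 to 5, of which 1309 were pericentromeric and 6250 in the arms. In the pericentromere 645 loci (49.3%) were present in all 12 libraries, against 3821 (61.1%) in the arms and 58.9% of all loci. At the other end, 201 pericentromeric loci (15.4%) were found in 1 library only, against 510 (8.16%) in the arms. The loci of the pericentromere were thus shared by fewer libraries. Of the 201, 64 came from Atsdr4l-4 1 DAI replicate 1 and 40 from Atsdr4l-5 3 DAI replicate 2. These 2 libraries gave 82 and 60 of the 510 in the arms, so the share rests in large part on them in the pericentromere.

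**Figure D4:**
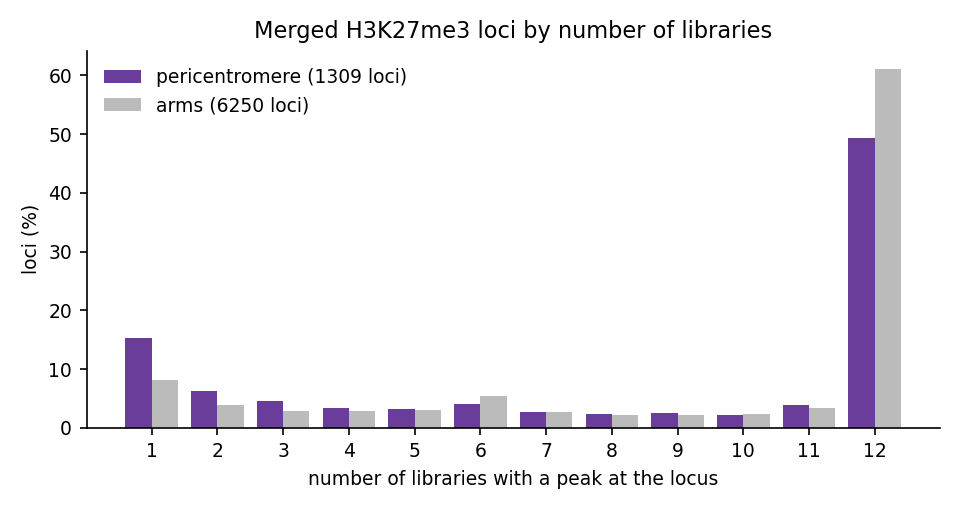
Share of merged loci (y axis, %) by the number of libraries with a peak at the locus (x axis), for 1309 pericentromeric and 6250 arm loci. The pericentromere had 49.3% of its loci in all 12 libraries and 15.4% in 1 library, against 61.1% and 8.16% in the arms.

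Loci found in all 12 libraries were strong and wide. Their median fold lay between 2.08 and 2.48 in the 3 DAI libraries and between 1.93 and 2.20 in the 1 DAI libraries, and their median width between 2853 and 4232 bp. Pericentromeric loci seen at 1 DAI and in no 3 DAI library had a median fold of 1.39 to 1.5 and a median width of 518 to 677.5 bp. Those seen at 3 DAI and in no 1 DAI library had a median fold of 1.48 to 1.61 and a median width of 573.5 to 787 bp. Both kinds of locus were therefore close to the calling limit.

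By time, 24 pericentromeric loci (1.83%) were present in all 6 libraries of 3 DAI and none of 1 DAI, against 249 (3.98%) in the arms and 3.6% of all loci. The reverse held for 9 loci (0.688%), against 30 (0.48%) in the arms and 0.541% of all loci. Loci present in more libraries at 3 DAI than at 1 DAI numbered 276 (21.1%), against 1636 (26.2%) in the arms and 25.2% of all loci. Loci present in fewer libraries at 3 DAI numbered 356 (27.2%), against 715 (11.4%) in the arms and 14.4% of all loci. In the pericentromere the second kind outnumbered the first, and in the arms the first outnumbered the second. With only peaks of fold enrichment 2 or more, this order turned round in the pericentromere, where 312 loci (48.8%) were present in more libraries at 3 DAI and 56 (8.76%) in fewer, against 49.3% and 6.17% of the loci in the arms.

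By genotype, 17 pericentromeric loci (1.30%) were present in all 4 Atsdr4l libraries and no Col-0 library of 1 DAI, against 34 (0.544%) in the arms and 0.673% of all loci. The reverse, present in both Col-0 and no Atsdr4l library of 1 DAI, held for 3 pericentromeric and 29 arm loci, or 0.422% of all loci. At 3 DAI, 11 pericentromeric loci (0.840%) were in all 4 Atsdr4l and no Col-0 library, against 24 (0.384%) in the arms and 0.462% of all loci. The reverse held for 7 pericentromeric and 50 arm loci, or 0.752% of all loci. These are counts of few loci, which moved by more than 1.5 times when single libraries were left out (the 17 to 53 without Col-0 1 DAI replicate 1 and to 41 without Atsdr4l-5 1 DAI replicate 1, the 11 to 29 without Col-0 3 DAI replicate 1 and to 17 without Atsdr4l-4 3 DAI replicate 2).

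Counted in bases, 2.60 Mb of the pericentromere was covered in all 12 libraries, in 902 segments of up to 17157 bp. Another 65.0 kb was covered in all libraries of 3 DAI and none of 1 DAI, and 11.9 kb the other way round. In the arms 15.1 Mb was covered in all 12 libraries, 832.8 kb at 3 DAI alone and 78.5 kb at 1 DAI alone. By genotype, 73.5 kb of the pericentromere was covered in Atsdr4l alone at 1 DAI, against 20.1 kb in Col-0 alone. The arms had 120.9 kb in Atsdr4l alone and 206.9 kb in Col-0 alone. At 3 DAI the pericentromere had 27.7 kb in Atsdr4l alone, against 20.1 kb in Col-0 alone, and the arms 63.6 kb and 299.4 kb. The segments for Atsdr4l needed 4 libraries and those for Col-0 only 2, so the 2 sums are not on equal terms.

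The 10 longest segments covered in all 12 libraries are described by the genes they hold. The longest, of 17157 bp (chr3:11902726-11919882), contained AGL79 (AT3G30260), a MADS-box transcription factor gene, CYP702A8 (AT3G30290), a cytochrome P450 gene, and AT3G30280, which encodes an acyltransferase. It was a single peak in each library, which follows from the choice of unbroken segments. Its fold was 2.46 and 2.70 for Atsdr4l-4, 2.51 and 3.13 for Atsdr4l-5 and 2.56 and 2.61 for Col-0 at 3 DAI. The 1 DAI libraries had 2.25 and 2.49 for Atsdr4l-4, 2.08 and 2.52 for Atsdr4l-5 and 2.02 and 1.83 for Col-0. The gene bodies lie wholly in the segment, so their cover of 100% in every library also follows from the choice. The lowest fold was in the Col-0 libraries of 1 DAI.

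The second segment, of 16680 bp on chromosome 5 (chr5:9124449-9141128), held LOG9 (AT5G26140), of the LONELY GUY family that activates cytokinins, and MIR156f (AT5G26147), a precursor of the microRNA that targets SPL transcription factors. It also held the protein kinase gene AT5G26150 and part of ASD2 (AT5G26120), an arabinofuranosidase gene. Its fold ranged from 2.54 to 3.31 over the 12 libraries. The next, of 15900 bp (chr1:12223240-12239139), held the cytochrome P450 genes CYP76C5 (AT1G33730) and part of CYP76C6, a terpenoid cyclase gene (AT1G33750) and a DREB-type transcription factor gene (AT1G33760), with a fold of 2.49 to 3.6. Metabolic genes thus stood beside regulators in these blocks.

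The sixth segment, of 14463 bp (chr1:17231536-17245998), held WOX4 (AT1G46480), the homeobox gene of the vascular cambium, and AGL97 (AT1G46408), another MADS-box gene, and the stretch shown first above lies in it. Fold was 2.47 and 2.32 for Atsdr4l-4, 2.40 and 2.29 for Atsdr4l-5 and 2.07 and 2.13 for Col-0 at 3 DAI. Among 1 DAI libraries it was 2.26 and 2.47 for Atsdr4l-4, 2.14 and 2.38 for Atsdr4l-5 and 2.22 and 2.39 for Col-0. The 2 time points overlapped fully here, and the 2 Col-0 libraries of 3 DAI had the lowest values of all. The peak itself varied more, with a width of 14526 to 27809 bp.

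The other segments of the 10 longest held, among other genes, the leucine-rich repeat kinase genes AT3G46400 and AT3G46420 with the kinase gene AT3G46410 (chr3:17071203-17086858, fold 2.04 to 2.95), 3 F-box genes AT1G47790, AT1G47800 and AT1G47810 (chr1:17591696-17606954, fold 2.47 to 3.24), and AIG1-type GTPase genes AT1G33880 and AT1G33890 (chr1:12300723-12315021, fold 2.24 to 2.98). Kinase-like genes AT3G46260, AT3G46270 and AT3G46280 filled chr3:16995976-17009715 (fold 2.77 to 3.86). The last 2 held the glycine-rich protein gene GRP9 (AT2G05440, chr2:1981628-1995252, fold 2.16 to 3.28) and the root growth factor peptide gene RGF4 (AT3G30350) beside the transporter gene UMAMIT32 (AT3G30340, chr3:11949574-11963064, fold 2.10 to 2.76). Each was chosen as covered without a break in all 12 libraries, so the single peak over it in each library follows from the choice.

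Segments covered in all libraries of 3 DAI and none of 1 DAI reached 2925 bp. The GASA3 (AT4G09600) and GASA2 (AT4G09610) genes, which encode small gibberellin-regulated peptides, lay in a 2642 bp segment (chr4:6072837-6075478), part of a peak of 3652 to 4320 bp. Fold was 2.5 and 3.07 for Atsdr4l-4, 2.69 and 3.49 for Atsdr4l-5 and 2.83 and 2.80 for Col-0. By the choice of the segment no 1 DAI library had a peak in it, and GASA3 was covered over 96.1 to 100% at 3 DAI.

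The longest such segment (2925 bp, chr3:11216009-11218933) overlapped AT3G29260, a gene for a Rossmann-fold oxidoreductase, with a fold of 2.49 and 2.76 for Atsdr4l-4, 2.77 and 2.85 for Atsdr4l-5 and 2.54 and 2.45 for Col-0. A 2281 bp segment (chr4:2449597-2451877) lay on MSRB6 (AT4G04840), a methionine sulfoxide reductase gene. Its fold was 1.86 and 1.97 for Atsdr4l-4, 1.87 and 1.95 for Atsdr4l-5 and 2.15 and 2.14 for Col-0. The fourth (2090 bp, chr3:10522665-10524754) was the edge of a peak of 22723 to 23850 bp that took in AT3G28216 and part of AT3G28220. The Col-0 libraries had the highest fold at MSRB6, and the genotypes were mixed at the other segments.

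The longest reverse segments, covered at 1 DAI and not at 3 DAI, held no annotated gene. The longest (1515 bp, chr1:14167932-14169446, 904 bp from MCT1, AT1G37140, a mei2-like gene) had a fold of 2.81 and 3.22 for Atsdr4l-4, 2.87 and 2.96 for Atsdr4l-5 and 2.85 and 3.10 for Col-0 at 1 DAI. It lay inside peaks of 5393 to 7123 bp, so that it was a shoulder of a strong locus rather than a weak peak of its own. The next (1129 bp, chr5:13610068-13611196), 601 bp from MIR396b (AT5G35407), a precursor of the microRNA that targets GRF transcription factors, had a fold of 1.79 to 2.06. The segment at chr1:11803893-11804933 had 1.88 to 2.25, and that at chr2:1189369-1190301 one of 2.09 to 2.48. The chromosome 1 segment at 11.8 Mb lay 2485 bp from MYC2 (AT1G32640), a transcription factor gene of jasmonate signalling.

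The longest segments that separated the genotypes were weak or present in the other genotype at another time. At 1 DAI, segments in the annotated pseudogenes AT3G43825 (1605 bp, chr3:15670630-15672234) and AT3G31420 (1317 bp, chr3:12786996-12788312) were covered in every Atsdr4l library but not in Col-0. Fold at AT3G43825 was 1.92 and 2.06 in Atsdr4l-4, with 1.79 and 1.92 in Atsdr4l-5 at 1 DAI. Both segments were covered in all 6 libraries of 3 DAI, Col-0 included. At 3 DAI a 1430 bp segment over the 5′ part of WNK9 (AT5G28080), a gene of the with-no-lysine kinase family, and its flank (chr5:10091832-10093261) was covered in Atsdr4l alone, with a fold of 1.69 and 1.38 in Atsdr4l-4, with 1.44 and 1.76 in Atsdr4l-5. At 1 DAI both Col-0 libraries covered part of it, 544 and 886 bp. The second segment of this kind (1340 bp, chr5:10021980-10023319) held no gene and had a fold of 1.58 to 1.73 in the Atsdr4l libraries of 3 DAI.

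In Col-0 alone at 3 DAI, a 2139 bp segment with AT4G04745 (chr4:2411883-2414021) had a fold of 1.71 and 1.91. An 860 bp segment reaching into PMAT1 (AT5G39050), a malonyltransferase gene (chr5:15633984-15634843), had 1.69 and 1.81. The first was covered in part in all 6 libraries of 1 DAI, and the second in none of them. In Col-0 alone at 1 DAI, 2 segments without a gene (chr5:15247431-15248909 and chr2:7091913-7093108) had a fold of 1.49 to 1.83. Of these, the one on chromosome 5 was covered in all 6 libraries of 3 DAI.

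The loci with the highest mean fold of those in all 12 libraries were mostly narrower than the longest segments. The highest was the locus of SAP (AT5G35770, chr5:13936086-13940867), the STERILE APETALA gene of flower and organ growth, on the - strand. Its fold at 3 DAI was 3.84 and 3.91 for Atsdr4l-4, 4.15 and 4.01 for Atsdr4l-5 and 3.63 and 3.93 for Col-0. At 1 DAI it was 3.47 and 4.02 for Atsdr4l-4, 3.34 and 3.65 for Atsdr4l-5 and 3.35 and 3.87 for Col-0. The means were 3.91 ± 0.175 at 3 DAI and 3.62 ± 0.283 at 1 DAI (SD, n = 6), and the ranges overlapped.

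The locus of rank 3 had no annotated gene (chr5:9423919-9425085, 65 bp from AT5G26800) and was only 1015 to 1165 bp wide in the libraries. Its fold was 4.23 and 3.82 for Atsdr4l-4, 4.23 and 3.77 for Atsdr4l-5 and 4.04 and 3.88 for Col-0 at 3 DAI. In 1 DAI seedlings it was 3.16 and 3.41 for Atsdr4l-4, 3.28 and 3.19 for Atsdr4l-5 and 3.30 and 3.85 for Col-0. All but 1 of the 1 DAI values, that of Col-0 replicate 2, lay under every 3 DAI value. The sequence of this locus and of SAP is shown above.

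The second locus, on chromosome 4, held 4 genes of RNI-like proteins (AT4G05470, AT4G05475, AT4G05490 and AT4G05497) with pseudogenes between them (chr4:2762643-2783513). The fold of its widest peak averaged 3.76 ± 0.531 at 3 DAI and 3.64 ± 0.199 at 1 DAI. This peak was 9575 to 13031 bp wide in the libraries, in a locus of 20871 bp. The fourth was AT3G29580, a gene for a MATH-domain protein (chr3:11394090-11395969), with 3.85 ± 0.20 at 3 DAI and 3.32 ± 0.242 at 1 DAI. The fifth held the C2H2 zinc finger genes ZAT7 (AT3G46090), AT3G46080 and AT3G46070 (chr3:16920009-16928295), with 3.86 ± 0.295 at 3 DAI and 3.27 ± 0.272 at 1 DAI. The higher mean stood at 3 DAI for all 5 of these loci, a direction not particular to them. Over all 645 pericentromeric loci in all 12 libraries, median fold was 2.08 to 2.48 in 3 DAI libraries and 1.93 to 2.20 in 1 DAI libraries. In the arms it was 2.31 to 2.56 and 2.00 to 2.23. The 5 loci were chosen by their mean fold, so their level is a description.

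Of the 3289 protein-coding genes of the pericentromere, 683 (20.8%) were marked in all 12 libraries, against 17.5% in the arms and 17.8% on all 5 chromosomes, and 2179 (66.3%) were marked in none. A further 26 (0.791%) were marked in all libraries of 3 DAI and none of 1 DAI, against 294 (1.22%) in the arms and 1.17% on all 5 chromosomes. No pericentromeric gene was marked in all libraries of 1 DAI and none of 3 DAI, against 13 arm genes (0.0540%) and 0.0474% on all 5 chromosomes.

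Some of these 26 genes, picked here after their values were seen, show how the coverage looked. EXPA5 (AT3G29030), an expansin gene of cell wall loosening, was covered over 51.6 to 65.9% of its body at 3 DAI and 0% in every library of 1 DAI. The germin-like gene GLP6 (AT5G39100), NHL22 (AT4G09590) and AT1G47540, a gene for a knottin-type peptide, were covered over 100% at 3 DAI and 0% at 1 DAI in every library. CYP81D1 (AT5G36220), a cytochrome P450 gene, had 73.2 to 84.1% at 3 DAI and 17.0 to 47.5% at 1 DAI. The last kind crossed the limit of 50% from a lower level, while the others had no peak on the gene at 1 DAI.

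Gene classes were read from the descriptions in the annotation. Cytochrome P450 genes were the most often marked class of the pericentromere, with 87.5 ± 4.18% of 20 genes at 3 DAI and 72.5 ± 6.12% at 1 DAI (SD, n = 6). In the arms 49.5% of 228 such genes were marked at 3 DAI. F-box genes, whose products select proteins for ubiquitination, had 63.1 ± 2.27% of 107 genes at 3 DAI and 58.3 ± 2.62% at 1 DAI, against 56.9% of 546 at 3 DAI in the arms. Receptor-like and other protein kinase genes had 32.2 ± 2.71% of 101 genes at 3 DAI, against 16.5% of 812 in the arms. For each of these 3 classes the share at 3 DAI was larger in the pericentromere than in the arms. Over all protein-coding genes the median length was 1739 bp in the pericentromere and 2120 bp in the arms. A limit set on a share of the gene body can depend on length, and this was not tested.

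Other classes went the other way. Of 27 MADS-box genes in the pericentromere 32.7 ± 2.79% were marked at 3 DAI, against 60.8% of 93 in the arms. Cysteine-rich or defensin-like peptide genes had 28.2 ± 1.62% of 39 at 3 DAI and 35.0 ± 7.37% at 1 DAI, against 52.2% of 154 in the arms at 3 DAI. Disease resistance genes had 24.6 ± 1.94% of 21, against 35.5% of 173. Hypothetical or transmembrane protein genes had 22.5 ± 1.12% of 634 at 3 DAI, against 31.9% of 2586. Self-incompatibility S1 or SCR-like genes (42.2% of 15, against 46.3% of 103) and zinc finger genes (28.6% of 64, against 26.3% of 458) were near the arms. Genes of a class often lie in tandem and share a peak, so these shares are given with no test.

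**Figure D5:**
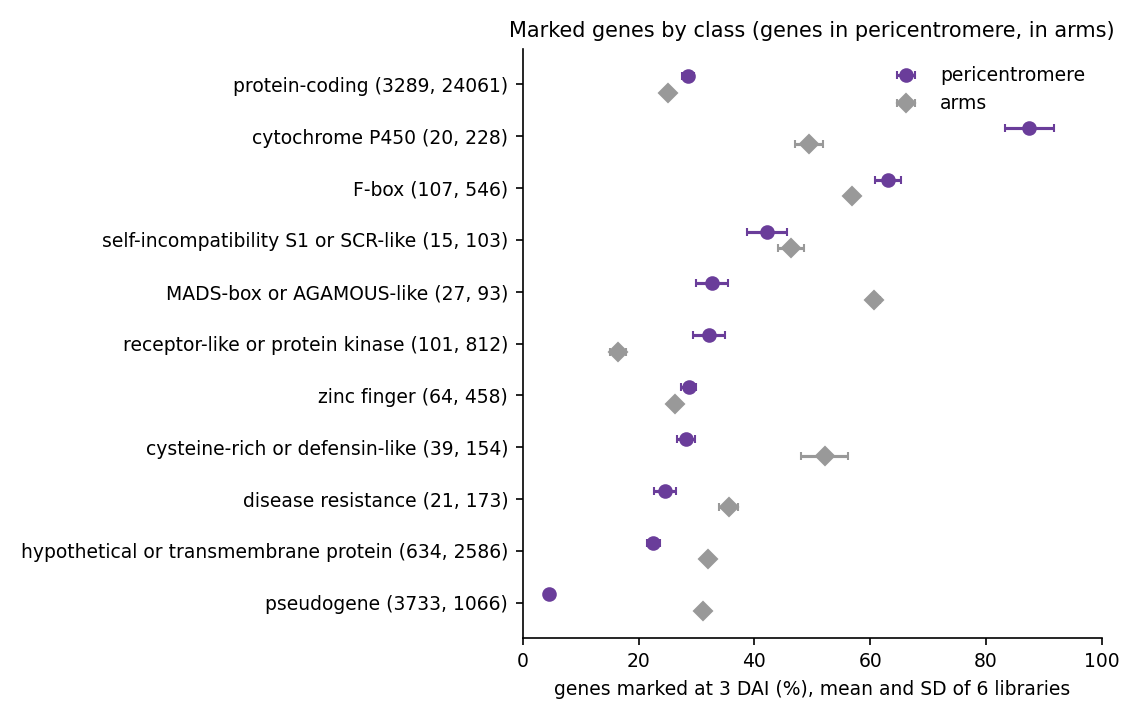
Share of genes marked at 3 DAI (x axis, %, mean and SD of 6 libraries) by gene class, for the pericentromere and the arms, with the number of genes in each region beside the class name. Cytochrome P450 genes stood at 87.5% in the pericentromere against 49.5% in the arms, and annotated pseudogenes at 4.46% against 31.2%.

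Entries annotated as pseudogenes had a lower marked share in the pericentromere than in the arms. The annotation has no transposon class, so transposon genes among these entries cannot be told apart from other pseudogenes. The 2 regions may differ in that mix, which was not tested. Of 3733 annotated in the pericentromere, 4.46 ± 0.424% were marked at 3 DAI and 3.88 ± 0.523% at 1 DAI, against 31.2 ± 0.863% at 3 DAI and 25.3 ± 1.79% at 1 DAI of 1066 in the arms. By bases, pseudogenes made up 27.7% of the pericentromere but 5.66 ± 0.561% of its peak bases at 3 DAI. Protein-coding genes made up 21.7% of the pericentromere and 39.1 ± 1.73% of its peak bases, whereas in the arms they made up 65.5% of the sequence and 46.4 ± 1.76% of the peak bases. Sequence with no gene made up 49.4% of the pericentromere and 52.8 ± 2.19% of its peak bases.

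Read the other way, peaks covered 23.8 ± 0.808% of the bases of pericentromeric protein-coding genes at 3 DAI and 21.7 ± 1.34% at 1 DAI, against 18.2 ± 0.475% and 15.2 ± 0.474% in the arms. Of the sequence with no gene they covered 14.2 ± 1.27% at 3 DAI and 14.1 ± 2.05% at 1 DAI, against 41.8 ± 3.45% and 38.4 ± 2.74% in the arms. Per base, called peaks thus covered more of the genes in the pericentromere than in the arms, and less of the sequence with no gene. That sequence can hold repeats, for which the annotation has no class. Unique sequence made up 94.6% of the pericentromere and 99.0% of the arms, and reads of low mapping quality were removed. The part of this filter in the cover was not tested.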

How the data were processed

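H3K27me3 ChIP-seq was analysed in 12 libraries (3 genotypes, 2 time points, 2 replicates each). The authors trimmed reads with fastp 0.23.4, used Bowtie 2 for alignment (TAIR10), removed alignments with mapping quality of 10 or less (SAMtools 1.6) and called broad peaks from paired-end fragments for each library with MACS2 (2.2.7.1, with 2.2.6 also named in the submitters' processing notes) against a common mock IgG control. The mock samples were not analysed here. Each deposited list gives a score, a fold enrichment over the control, a -log10 p-value and a -log10 q-value per peak. The score is the authors' 10 times -log10 q, cut to a whole number. The lists hold no counts, so the depth per sample is unknown, no counting interval can be given, and 1 value per library was compared.

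Peaks were assigned by midpoint, and the arms were the rest of chromosomes 1 to 5. Number and covered share were taken per ungapped base, and genes, pseudogenes and sequence from RefSeq (TAIR10.1), which has no transposon class. Comparisons were exact permutation tests on log2 values, with time labels permuted within genotype (216 relabellings, smallest p 0.00926), genotype labels within time point (225, smallest p 0.00444, since 15 splits within 1 time point cannot reach 0.05), and region labels within library (4096, smallest p 0.000488), adjusted by Benjamini-Hochberg over 25 tests. The scripts were tested on simulated data. Overlapping peaks of all lists were merged into loci. The fold of a named segment or locus in a library was that of the widest peak overlapping it. The genes named are those of the 10 longest segments covered in all 12 libraries, the 4 longest of each direction in time, the 2 longest of each direction in genotype at each time point, and the 5 loci of highest mean fold, with exceptions stated where they occur. The windows, gene classes and motifs were chosen with earlier results of these data known. Alternatives were stricter peaks, joined peaks, other membership, window edges, denominators and gene limits, equal numbers of peaks (6474 per library), a filter on repeats, single alleles, a replicate block and leaving out single libraries. Values were computed in Python 3.11.15 with scipy 1.17.1, numpy 2.4.6 and pandas 2.3.3, and drawn with matplotlib 3.10.9.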

Additional observations from a re-analysis of the deposited data

Results flagged for a closer look

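For 6 values the change in the pericentromere differed from that in the arms by an exact permutation test before adjustment. With time, the ratio of pericentromere to arms differed by -0.189 on the log2 scale for the number of peaks, by -0.107 for the covered share and by -0.117 for marked protein-coding genes. With genotype, it differed by 0.0765 for the number, by 0.0584 for the width and by 0.0843 for marked genes. Of these 6, number and marked genes with time and marked genes with genotype held after adjustment.

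One library stood apart from its group. Atsdr4l-5 3 DAI replicate 2 had a covered-share ratio of 0.568, far above the other libraries of 3 DAI, both among all 6 and among the 4 Atsdr4l libraries. These were 2 of 40 groups examined, and chance gives about 1 in 20 such groups.

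Peaks on the organellar genomes, which enter no comparison, were listed at 1 DAI in Atsdr4l-4 replicate 2 (23 peaks), in Atsdr4l-5 replicates 1 and 2 (15 and 17) and in Col-0 replicates 1 and 2 (20 and 27), and in no library of 3 DAI nor in Atsdr4l-4 1 DAI replicate 1.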

How the results depend on the processing

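Of 675 values from alternatives to 34 results, 584 kept their direction and side of the threshold (counts within 1.5 times), among them all from joined peaks, membership by any overlap, the filter on repeats, other denominators and other gene limits. Stricter peaks changed the most, and the cause was not tested.

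With -log10 q of at least 5, the log2 difference with time turned to 0.16 for number, -0.0954 for width and -0.0109 for the width ratio to the arms, and the covered-share ratio was -0.0793 (exact p = 0.176). For Atsdr4l, number was 0.17 (exact p = 0.0711) and the ratios to the arms 0.16 for covered share (exact p = 0.0267), 0.0578 for width (exact p = 0.418) and 0.0383 for fold (exact p = 0.0133). Width of pericentromere against arms turned to 0.0798. With fold of at least 2, the differences with time were 0.34 for number, 0.35 for covered share and -0.13 for width. The ratios to the arms were -0.10 for number, -0.0513 for covered share, -0.0149 for width and -0.0197 for fold. Of these ratios, those for number and covered share lost their exact p under 0.05. For Atsdr4l the ratios were 0.22 for covered share, 0.0591 for width and 0.0240 for fold, and width against arms turned to 0.0768. Loci then numbered 237 in all 12 libraries, 15 in 3 DAI only, 0 in 1 DAI only, 312 in more libraries at 3 DAI and 56 in fewer, 11 in Atsdr4l only at 1 DAI and 1 in Col-0 only at 1 DAI.

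Narrowed windows gave covered-share ratios of -0.11 with time (exact p = 0.0648) and 0.14 for Atsdr4l (exact p = 0.0489), and widened windows 0.10 for Atsdr4l (exact p = 0.0489) and a width against arms of 0.0096. With equal numbers of peaks, width differed with time by 0.23 (exact p = 0.00926), its ratio by 0.0697 (exact p = 0.00926), width for Atsdr4l turned to 0.0333, and width against arms was -0.0154 (exact p = 0.394). Atsdr4l-4 alone gave 0.10 for number and ratios of 0.0767 for number, 0.0527 for width and 0.0747 for marked genes. Atsdr4l-5 alone gave 0.0971, 0.0763, 0.0640 and 0.0938. With 1 allele the smallest p the 36 relabellings allow is 0.0556, so neither allele alone could pass 0.05.

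With a replicate block, the width ratio with time was 0.0335 (exact p = 0.0312, the smallest of 64 relabellings), and for Atsdr4l number was 0.10 (exact p = 0.0617) and its ratio 0.0765 (exact p = 0.0741), with no other call changed. Deviations of same-numbered libraries correlated at -0.363 to 0.241, so the numbers were not taken as pairs.

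Leaving out 1 library gave, with time, -0.133 to -0.0890 for number, 0.0791 to 0.204 for width and -0.137 to -0.0775 for the covered-share ratio. The last lost its unadjusted exact p under 0.05 without any of 9 libraries. For Atsdr4l it gave 0.0806 to 0.119 for number, -0.0611 to 0.0016 for width (turned only without Atsdr4l-4 3 DAI replicate 1), and ratios of 0.0481 to 0.105 for number, 0.0861 to 0.149 for covered share, 0.0474 to 0.0693 for width, 0.0248 to 0.0387 for fold and 0.0598 to 0.109 for marked genes. Loci in 1 DAI only numbered 9 to 20, in Atsdr4l only 17 to 53 at 1 DAI and 11 to 29 at 3 DAI, and in Col-0 only 3 to 22 at 1 DAI and 7 to 13 at 3 DAI.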
